A study of Arabidopsis thaliana with 2 samples.

Results

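The ACR genes of Arabidopsis thaliana encode proteins built largely of ACT domain repeats, and 10 of them were examined for peaks of TGA1-GFP, the bZIP transcription factor TGA1 fused to green fluorescent protein. They were ACR1, ACR3, ACR4, ACR5, ACR6, ACR7, ACR8, ACR9, ACR11 and ACR12, taken by their locus tags, and every peak that overlapped a gene body or 3000 bp on either side by at least 1 bp was collected. By this rule 19 of the 8002 peaks in the deposited list lay within reach of these genes, at 7 of the 10. Below, the family means these 10 genes unless further members are named. The genes were selected on the positions of peaks in this same list, so the values below are a description and carry no test.

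Chromatin immunoprecipitation with sequencing (ChIP-seq) recovers and sequences the DNA held by a chromatin protein. Per the labels, chromatin came from formaldehyde-fixed roots of TGA1-GFP plants, and the titles give 1 library for a GFP antibody and another for IgG, which shows the background of the pull-down. All material came from plants that carry the fusion. Nothing used here states the promoter that drives it, the genetic background, the age or growth conditions of the plants, or whether the peaks were called against IgG. The study asked where TGA1 sits on the genome. There was 1 library per antibody and thus no replicate. The list holds chromosome, start and end alone, so a peak is described here by its position, its width and its place in the list, and the number of reads behind it is unknown.

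ACT domains are small regulatory modules that bind amino acids or other small ligands and change the activity of the protein that carries them. They are named after aspartate kinase, chorismate mutase and the bacterial protein TyrA, and they also form the sensor end of GlnD, the glutamine sensor of enteric bacteria. Plant ACR proteins hold the repeats without the catalytic part of GlnD and have been regarded as candidate sensors or regulators in amino acid metabolism. In the plastid, ACR11 has been reported to activate the glutamine synthetase GS2 and to bind ferredoxin-dependent glutamate synthase, and ACR12 is its closest relative. The receptor kinase CRINKLY4 is also abbreviated ACR4 in the literature and is not a member of this family.

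Among the 10 ACR genes, peaks lay on or at the edge of the gene at all 7 that had any. ACR3, ACR5, ACR6, ACR7, ACR8, ACR11 and ACR12 each had at least 1 peak overlapping the gene body, against 14.9% of the 27444 protein-coding genes of the nuclear chromosomes. Within the full reach of 3000 bp the count was again 7 of 10 (70%), and 40.5% of all protein-coding genes had a peak there. The ACR genes are longer than most, with a median length of 3003.5 bp against 2078 bp. Among the 8456 protein-coding genes between 2383 and 4253 bp long, the length range of the family, 44.9% had a peak within reach and 19.4% had a peak on the gene body.

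**Figure D1:**
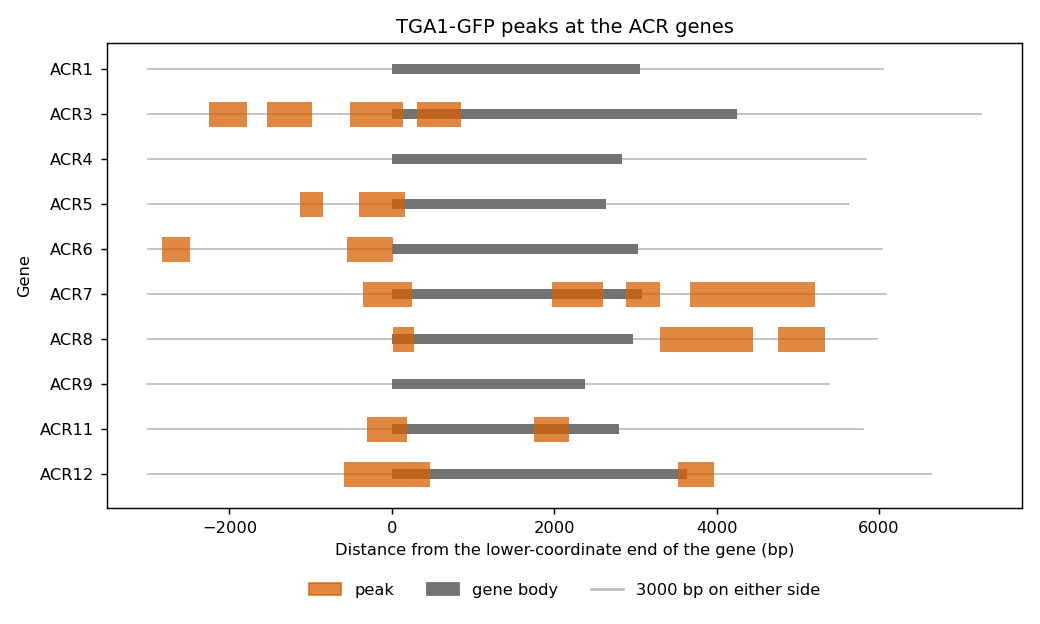
Position of every peak (orange) along each of the 10 ACR genes (dark grey) and the 3000 bp on either side (thin line), in bp from the gene end with the lower coordinate. The 7 genes with peaks have at least 1 touching the gene body, and ACR1, ACR4 and ACR9 have an empty window; the gene table gives no strand, so left and right are not start and end of transcription.

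Each of these 7 genes had several peaks. At least 2 peaks were found at 7 of the 10 ACR genes, against 16.1% of protein-coding genes, at least 3 at 3 of them, against 5.79%, and 4 at ACR3 and ACR7, against 1.65% of genes with 4 or more. None of these 10 ACR genes had exactly 1 peak, which is the number at 24.4% of protein-coding genes. The mean was 1.9 peaks per ACR gene and 0.646 per protein-coding gene. These background values cover genes of all lengths, and the ACR genes, longer than most, have longer windows.

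**Figure D2:**
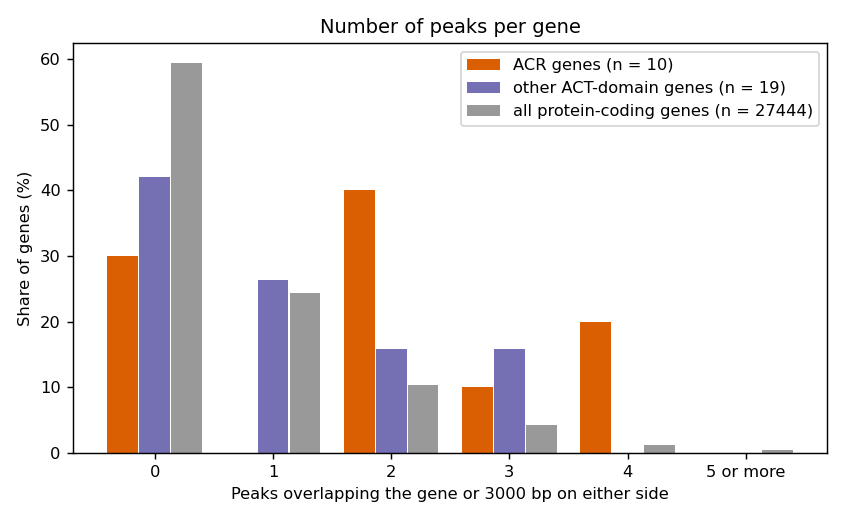
Share of genes (%) by the number of peaks overlapping the gene or 3000 bp on either side, for the 10 ACR genes, 19 other genes linked to ACT domains, and all 27444 protein-coding genes. The 10 ACR genes hold 0, 2, 3 or 4 peaks, and 59.5% of all protein-coding genes hold 0.

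ACR7 (AT4G22780) was the most covered of the 10 genes, with 3199 bp of its window under peaks. Among all protein-coding genes, 99.7% had less. Its widest peak, 1543 bp at place 1140, lay outside the gene on chromosome 4 from 11971938 to 11973480 (TAIR10), 580 bp from the upper-coordinate end. It was the widest of the 19 peaks at the family, and 97.6% of all peaks were narrower. A peak of 605 bp at place 762 (11967913 to 11968517) crossed the lower end and covered 246 bp of the gene. A peak of 628 bp at place 3052 lay wholly inside the gene, and a peak of 423 bp at place 4068 crossed the upper end, covering 204 bp of the gene. ACR7 was thus marked at both ends, inside and in 1 flank, and ACR7 was the nearest protein-coding gene to all 4 midpoints.

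ACR3 (AT1G76990) carried a run of 4 peaks around its lower-coordinate end, on chromosome 1 from 28929867 to 28932968, a span of 3102 bp. From the flank into the gene their widths were 469, 562, 655 and 535 bp, at places 4918, 4107, 2944 and 6342. The peak of 655 bp crossed the gene end and covered 134 bp of the gene, the one of 535 bp lay inside the gene, and the other two lay 982 and 1783 bp outside it. The gaps between neighbours in the run were 239, 461 and 181 bp. No peak lay within 3000 bp of the upper end, and 98.3% of protein-coding genes had less than the 2221 bp covered at ACR3. A further peak of 522 bp at place 560 lay just beyond the reach, 3105 bp from the gene.

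ACR8 (AT1G12420) differed from ACR3 in that its wide peaks stood clear of the gene. A peak of 1154 bp at place 1752 lay on chromosome 1 from 4229535 to 4230688, 323 bp beyond the upper end, and a peak of 583 bp at place 3702 followed after a gap of 303 bp. The only peak on the gene body was 254 bp wide, at place 7246, and lay inside the gene 13 bp from its lower end. Only 2.24% of all peaks were narrower than this one, so the count of ACR8 among genes with a peak on the body rests on a narrow and late entry. Without it ACR8 would still have had 2 peaks within reach.

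At ACR5 (AT2G03730) and ACR6 (AT3G01990) a peak of similar width crossed the lower-coordinate end. The peak at ACR5 was 570 bp wide, at place 2406 (chromosome 2, 1137163 to 1137732), and covered 161 bp of the gene. A second peak of 284 bp at place 5396 lay 851 bp outside. The peak at ACR6 was 574 bp wide, at place 1531 (chromosome 3, 329542 to 330115), and touched the gene with 17 bp. Its midpoint lay 270.5 bp from ACR6 and 441.5 bp from AT3G01980, the gene on the other side of the gap.

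The second peak counted at ACR6, 344 bp at place 5548, was the most distant of the 19, at 2488 bp from the gene. Its midpoint lay between WRKY45, a WRKY transcription factor gene, and AT3G01980, at 26.5 and 16.5 bp, and the peak overlapped both. It was the only one of the 19 for which another protein-coding gene was nearer than the ACR gene. ROXY1, a class III glutaredoxin gene, is annotated wholly within the span of ACR6, and no peak lay on that stretch. The next protein-coding gene on that side is AK3, an aspartate kinase gene, and so a gene of another ACT-domain protein. The peak nearest to AK3, 374 bp at place 2178, lay 3591 bp from ACR6 and outside its window.

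Of the 2 plastid members, ACR12 (AT5G04740) held the earliest peak of the family, at place 215 of the list. That peak was 1059 bp wide (chromosome 5, 1367316 to 1368374) and covered 464 bp of ACR12 at its lower end. The gap to the neighbouring gene AT5G04730 is 459 bp, and the peak spanned all of it and ran into that gene. Its midpoint was 66 bp from ACR12 and 394 bp from AT5G04730. At the upper end a peak of 444 bp at place 1008 covered 116 bp of the gene. ACR12 and ACR7 were the 2 ACR genes with a peak crossing each end, which was found at 1.27% of protein-coding genes.

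ACR11 (AT1G16880) has the most crowded position in the family. Its gap to AT1G16870 on the lower side is 189 bp, and on the upper side it overlaps UBC36, a gene of a ubiquitin-conjugating enzyme, by 132 bp. A peak of 484 bp at place 2124 (chromosome 1, 5773210 to 5773693) covered this gap and 182 bp of ACR11, with its midpoint 60.5 bp from ACR11 and 129.5 bp from AT1G16870. A peak of 425 bp at place 6108 lay inside ACR11. The peak at the lower ends of ACR11 and of ACR12 can therefore be assigned to either neighbour.

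ACR1 (AT5G65890), ACR4 (AT1G69040) and ACR9 (AT2G39570), the last reported to repress glucose signalling, had no peak within reach. The nearest peak to ACR1 was 385 bp wide and 5599 bp away, and that nearest to ACR4 was 794 bp wide and 5403 bp away. The nearest peak to ACR9 was 1292 bp wide and 9678 bp away. All 3 windows stayed empty when the reach was raised to 5000 bp. A gene without an entry in the list is not shown to be unbound, since the calling threshold and the depth are unknown.

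Distances to the next protein-coding gene were summed over both sides of each gene, also beyond the 3000 bp window. Non-coding genes were left out. The sums ran from 1225 to 9428 bp at ACR1, ACR4 and ACR9 and from 189 to 6712 bp at the 7 genes with peaks. Whether they relate to the presence of peaks was not tested. ACR4 has 9428 bp, the most in the family, with 8226 bp of it on the lower side, mostly outside the window. ACR5 has 6712 bp, the most among the 7 genes with peaks. ACR1 has 1225 bp and ACR9 has 1739 bp. ACR11 and ACR12, which had peaks, have only 189 and 1042 bp.

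**Figure D3:**
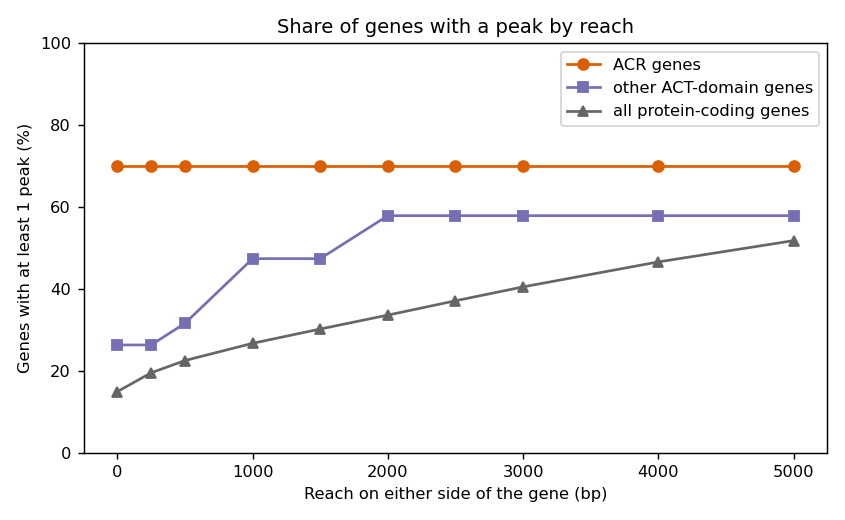
Share of genes (%) with at least 1 peak as the reach on either side of the gene grows from 0 to 5000 bp, for the 10 ACR genes, 19 other genes linked to ACT domains and all protein-coding genes. The ACR share stays at 70% throughout, and the share of all protein-coding genes rises from 14.9% to 51.8%.

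By position, 12 of the 19 peaks overlapped the gene they were counted for and 7 lay outside it. The same split over the peaks of all protein-coding genes is not given here. A peak crossed a gene end at 6 ACR genes, all of the 7 except ACR8, against 12.7% of all protein-coding genes and 15.8% of those in the family's length range. A peak lay wholly inside ACR3, ACR7, ACR8 and ACR11, 4 of the 10 genes, against 3.28% of protein-coding genes. That share covers genes of all lengths, and longer genes have more room for such a peak. Counted over peaks rather than genes, 8 of 19 crossed an end of the ACR gene, and 9 of 19 (47.4%) crossed an end of some protein-coding gene, the ninth being the 344 bp peak at WRKY45 and AT3G01980. Of all 8002 peaks 41.5% did so, which is near the family's share. The gene end with the lower coordinate was the nearer for 12 peaks and the upper end for 7.

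The peaks at the family were mostly wider than the median of the list and were spread over most of it. Their median width was 562 bp, with a range of 254 to 1543 bp, against a median of 434 bp over the list. Of the 19, 14 (73.7%) were wider than the median of the list, which 49.9% of all peaks exceeded. Peaks of 1000 bp or more numbered 3, at ACR7, ACR8 and ACR12. This gave 3 of 10 genes with such a peak within reach, against 5.67% of protein-coding genes, and 15.8% of the family's peaks against 9.14% of all. By place, 11 of 19 (57.9%) lay among the first 4001 entries and 2 among the first 1000, those of 605 bp at ACR7 and 1059 bp at ACR12. The file does not say what its order stands for.

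**Figure D4:**
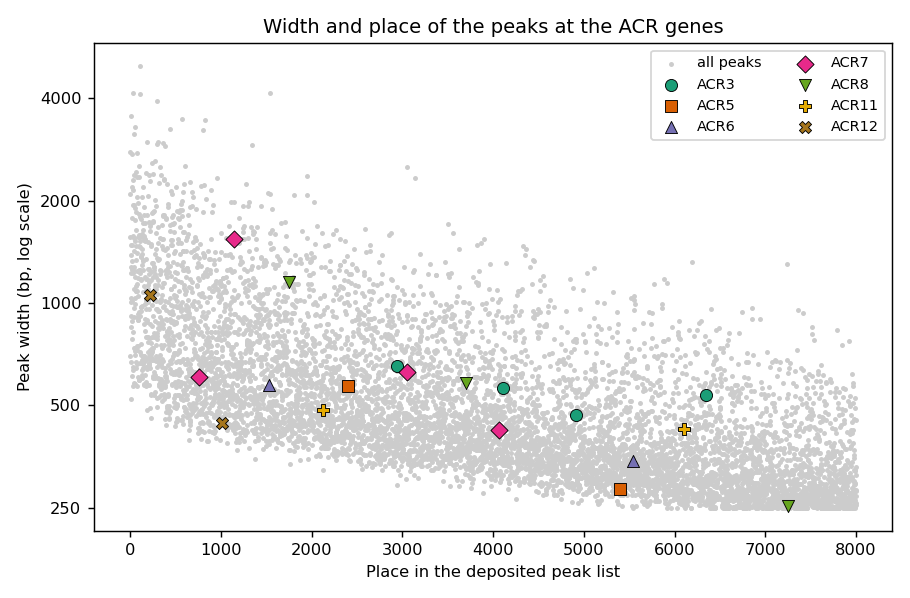
Width (bp, log scale) against place in the deposited list for the 19 peaks at the ACR genes (coloured by gene) over all 8002 peaks (grey). The peaks run from place 215 at ACR12 to place 7246 at ACR8, and the widest, 1543 bp, is at ACR7.

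Peaks at the same ACR gene stood close together at some of the genes and far apart at others. Of the 12 gaps between neighbouring peaks in the ACR windows, 7 (58.3%) were under 500 bp, at ACR3 (3 gaps), ACR7 (2 gaps), ACR5 and ACR8. The other 5 gaps, at ACR6, ACR7, ACR8, ACR11 and ACR12, were 1573 to 3060 bp. The median gap was 451.5 bp, and the smallest, at ACR3, was 181 bp. Over the windows of all protein-coding genes, which share peaks between neighbouring genes, the median of 6612 gaps was 990 bp and 29.5% were under 500 bp. Close peaks come from the same list and are not independent observations.

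For comparison, 19 other genes linked to ACT domains were listed: 2 further ACR family members, the PII protein gene GLB1, and enzymes of amino acid synthesis with regulatory ACT domains or subunits. Their median length was 2936 bp, against 2078 bp for all protein-coding genes, and the background shares in this paragraph cover genes of all lengths. Of these 19 genes, 11 (57.9%) had a peak within reach, against 40.5% of all protein-coding genes, and 6 had at least 2, against 16.1%. A peak lay on the gene body at 5 of the 19, against 14.9%, and crossed a gene end at 2, against 12.7%. At 3 of the 19 a peak lay wholly inside the gene, against 3.28%. None had a peak of 1000 bp or more, against 5.67% of protein-coding genes. ADT2 and PD1, which encode arogenate dehydratases of phenylalanine synthesis, had widest peaks of 830 and 753 bp at gaps of 2833 and 2903 bp, with other genes nearer. PD1 also had a peak of 631 bp at place 2429 that crossed a gene end and covered 275 bp of the gene. ADT5, of the same enzyme family, had the most covered window of this list, 1294 bp under 3 peaks of 387 to 464 bp, 2 of them inside the gene. PGDH, a phosphoglycerate dehydrogenase gene of serine synthesis, had a peak of 552 bp inside the gene. AK-HSDH II, a gene of a bifunctional enzyme of aspartate-derived amino acids, had 3 peaks, none on the gene, the widest 550 bp at 2409 bp. AT2G31810, an acetolactate synthase regulatory subunit gene, had a peak of 519 bp across a gene end, with its midpoint nearer to AT2G31800. EDA9, another phosphoglycerate dehydrogenase gene, had a peak of 495 bp at place 295, 1875 bp away.

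The further ACR family members and GLB1 had little. ACR10 (AT2G36840), the relative of ACR9, had 1 peak of 468 bp at place 5940, 346 bp from the gene and with its midpoint nearer to the callose synthase gene GSL8. AT5G25320 and GLB1, the plant homologue of the bacterial PII nitrogen sensor, had no peak within reach. Counted with these 2 family members, 8 of 12 ACR genes had a peak within reach, against 40.5% of protein-coding genes, and 7 of 12 had a peak on the gene body, against 14.9%. Whether the ACR genes differ from the other list was not tested.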

How the data were processed

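Per the submitters' processing notes, Bowtie2, MACS2 and the TAIR10 build were used; no version, threshold or filter is stated. The authors deposited 1 list of 8002 peaks with 3 columns and no header. Starts were read as 0-based and are printed counted from 1. Genes, names and distances came from RefSeq's table of genes (TAIR10.1), which has no strand and no exons; all 10 members matched by locus tag and symbol. Gene coordinates are not printed because the table names another release. As a check of the shared frame, 25.3% of peak midpoints lay inside protein-coding genes, against 62% and 62.2% after shifts of 5000 bp down and up. Place is the line number in the list, and gaps run from edge to edge.

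The members and lists were chosen with earlier results of these data known. All members are named; from the other list, the 6 genes with the widest peaks; ACR10, ADT5, AK3, ROXY1, UBC36, AT5G25320 and GLB1 were added after their values were seen. No test was run. The interval on the background share is a 95% Wilson interval over genes. It treats genes as independent, although neighbouring genes share peaks, and it does not measure variation between libraries. The overlap code was tested on simulated data. No sequence was used here, so the planned description of motifs and proteins was not made. Work was done in Python 3.11.15 with pandas 2.3.3, scipy 1.17.1, matplotlib 3.10.9 and numpy 2.4.6.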

Additional observations from a re-analysis of the deposited data

How the results depend on the processing

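The number of ACR genes with a peak was 7 under all 10 alternatives: 4 other reaches, 2 other overlap rules, wider peaks only, earlier peaks only, peaks nearest to the gene only, and starts read as 1-based. The number of peaks at these genes fell from 19 to 12 on the gene body alone and to 11 in the earlier of 2 equal parts of the list; elsewhere it lay between 14 and 25. The share of protein-coding genes with a peak, 40.5% (95% interval 40.0 to 41.1%), was 14.9% on the gene body, 26.7% at 1000 bp, 33.6% at 2000 bp and 51.8% at 5000 bp. It was 38.9% by midpoint, 38.9% with at least 50% of the peak in the window, 24.3% with peaks at or above the median width, 24.6% with the earlier peaks and 21% with peaks nearest to the gene. With all annotated nuclear genes it was 35.7%, and in the family's length range, an alternative chosen after seeing the data, 44.9%. The 11 other genes linked to ACT domains became 5 on the gene body, 7 with earlier peaks and 7 with peaks nearest to the gene. These moves follow from counting a smaller or larger window, fewer peaks or other genes. No paired analysis was possible because each antibody has 1 library. Depth is unknown, so a missing peak sets no limit on binding. The counts share peaks between neighbouring genes, and the members' reads cannot be compared with the IgG library.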
